A study of Mus musculus with 60 samples.

Results

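The comparison covers 10 liver RNA-seq libraries of mice, of 60 libraries in the series, chosen by tissue, diet and the absence of NaKtide induction. The 5 Western diet mice ate for 12 weeks a food in which fat made up 42%, carbohydrate 42.7% and protein 15.2%. The 5 control diet mice ate normal chow for the same time, in which fat made up 11%, carbohydrate 62% and protein 27.0%. Another 10 livers came from transgenic mice on the same diets with 300 mg/kg doxycycline, which switches on NaKtide, a peptide taken from the sodium pump (Na,K-ATPase) that blocks the pump's signalling through the kinase Src. The labels give neither strain, sex and age nor the promoter of the transgene, and they do not say whether the mice without NaKtide carried the transgene or ate doxycycline. The diets differ in fat, carbohydrate and protein together, so these cannot be told apart. Equal replicate numbers are not said to mark a shared litter or day. The p-values measure the spread between livers, 5 per group. For edgeR this spread was estimated over all 20 liver libraries, those with NaKtide included. Exact permutation p-values use only the 10 livers compared.

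The liver turns spare carbohydrate into fatty acids through cytosolic acetyl-CoA, malonyl-CoA and palmitate, and links them to glycerol for storage in lipid droplets or export in lipoproteins. Transcription of these enzymes is driven by SREBP-1c, which answers to insulin, and by ChREBP, which answers to sugar phosphates. Hepatocytes also break down amino acids, oxidise fatty acids during fasting and clear foreign compounds with cytochrome P450 enzymes.

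Of 12991 genes tested, 1097 passed an adjusted p of 0.05 in the quasi-likelihood test of edgeR (Benjamini-Hochberg adjustment), which is 8.44%. They were 617 higher genes (4.75%) and 480 lower genes (3.69%) on Western diet, and 361 and 170 of them differed by more than 2-fold. The Western diet values lay all above or all below the control values for 939 genes (7.23%), and 665 genes met both criteria. The median log2 fold change over all genes was 0.03. In the text below, "called" means past this adjusted p, expression is in CPM (a gene's counts relative to the TMM-scaled total of its library, per 1e+06), and a log2 fold change is Western diet minus control diet ± standard error.

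Hepatocyte markers dominated all 10 libraries, with sums of 49068 to 61685 CPM in Western diet livers and 64425 to 78319 CPM in control livers. Depth was 5429651 to 6271185 counts per Western diet library and 3177783 to 6069831 counts per control library. Skeletal muscle markers summed to 7.91 to 11.9 CPM in Western diet livers, against 374 and 768 CPM in control livers 2 and 4 and 12.9 to 28.8 CPM in the other 3 control livers. All 5 tested muscle markers were called lower, so the 480 lower genes include muscle transcripts such as Acta1 and Ckm (log2 -5.17 and -4.82). Without control livers 2 and 4, 656 genes were called, 385 higher and 271 lower, 1 of them a muscle marker. Of the 1097 calls, 581 were called again, 329 of them higher genes, and all 1097 kept their sign. Western diet liver 1 also stood apart: its first principal component score of 44.95 lay near those of NaKtide livers 2 to 5 on Western diet (48.93 to 69.86), whereas the other Western diet livers lay between -39.21 and 5.12. NaKtide liver 1 on Western diet scored 2.52, inside that range. Whether the labels of these 2 livers are exchanged was not tested. Without the first Western diet liver of each treatment 1082 genes were called, 867 of them among the 1097. For the diet contrast without NaKtide, most counts of gene groups below are given again without control livers 2 and 4. They are also given without the first Western diet livers where that moves a count by more than 1 gene.

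**Figure D1:**
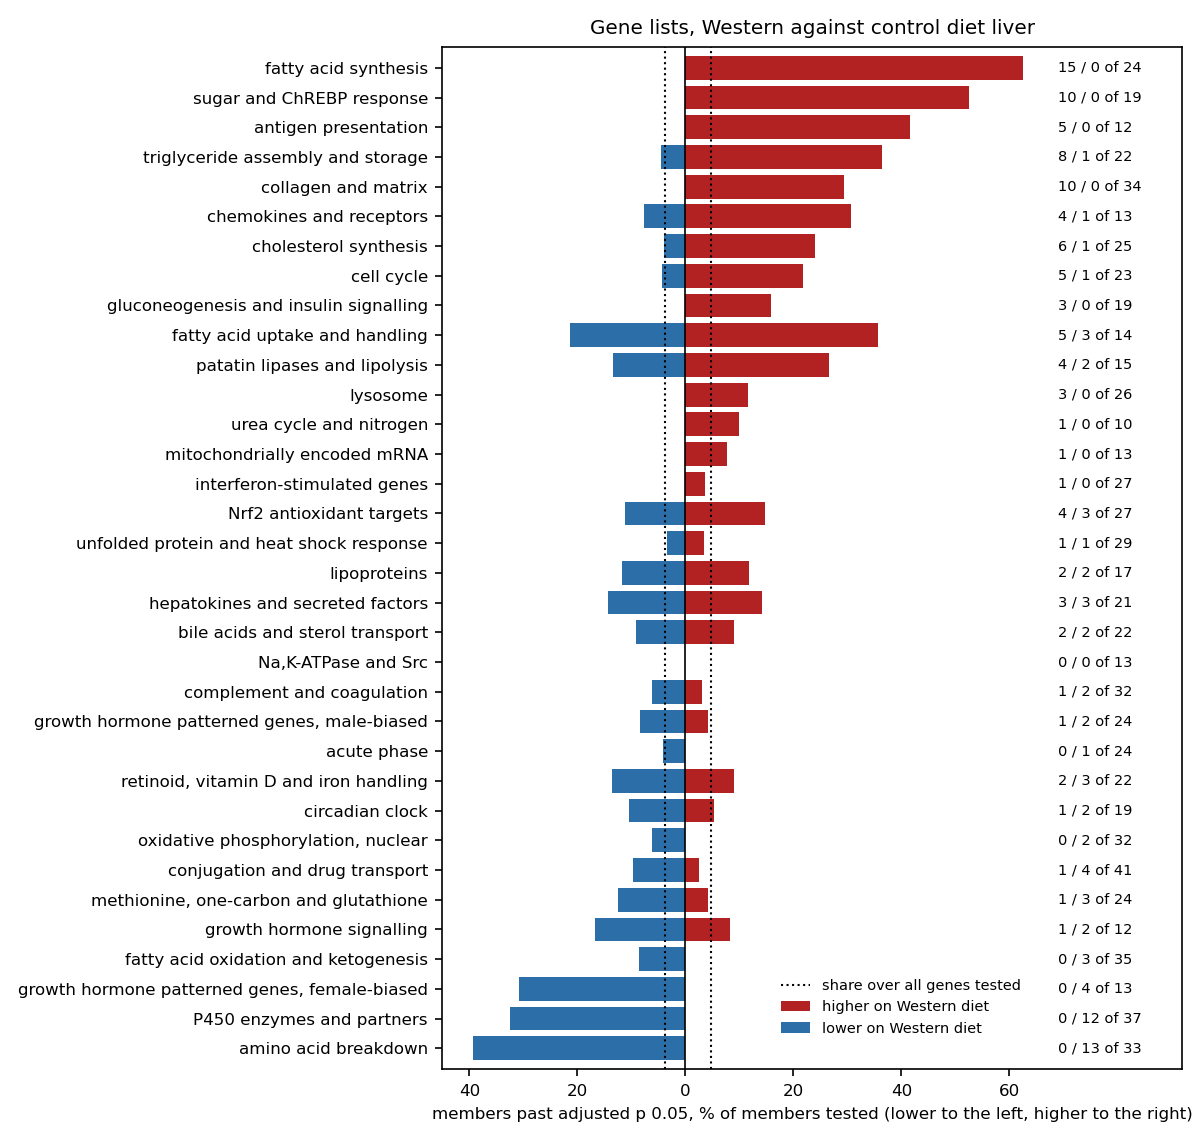
Percent of the tested members of each gene list that were called higher (red, right) or lower (blue, left) on Western diet, with the counts higher / lower of tested beside each bar; dotted lines mark the shares over all genes, 4.75% and 3.69%. Fatty acid synthesis has the longest bar to the right with 15 of 24 members, and amino acid breakdown the longest to the left with 13 of 33.

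Fatty acid synthesis was the list with the largest share of higher genes. Of its 24 members 15 were called higher and 0 lower, 24 of 24 had a positive log2 fold change, and the median was 1.77 beside 0.03 over all genes. Without control livers 2 and 4 the count was 14 higher and 0 lower. Fasn, fatty acid synthase, which builds palmitate, had 1155, 2972, 3015, 1694 and 2678 CPM in Western diet livers, against 263, 284, 156, 158 and 285 CPM in control livers. The lowest Western diet liver, liver 1, was still far above the highest control liver (log2 3.33 ± 0.41, edgeR adjusted p = 2.5e-05). Acly, ATP citrate lyase, which makes cytosolic acetyl-CoA, had 265, 880, 1121, 733 and 681 CPM on Western diet and 56.8, 94.8, 63.5, 78.4 and 73.9 CPM on control diet (log2 3.32 ± 0.48, edgeR adjusted p = 0.00015).

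Both acetyl-CoA carboxylases, which make malonyl-CoA, rose. Acaca, the cytosolic form that feeds synthesis, had 222, 413, 450, 263 and 351 CPM in Western diet livers and 83.4, 73.8, 54.7, 44.6 and 54.0 CPM in control livers, 5.47-fold higher (edgeR adjusted p = 1.9e-05). Acacb, whose malonyl-CoA restrains mitochondrial fatty acid entry, was 3.86-fold higher (edgeR adjusted p = 0.0014). The enzymes that supply NADPH for the synthesis also rose: Me1, malic enzyme, was 6.95-fold higher, G6pdx, glucose-6-phosphate dehydrogenase, 7.48-fold, and Pgd, the next dehydrogenase of the pentose phosphate pathway, 5.02-fold (edgeR adjusted p = 9.3e-05, 1.2e-05 and 7.9e-06). Pgd had 106, 189, 231, 163 and 169 CPM on Western diet and 36.6, 37.3, 33.5, 30.3 and 32.8 CPM on control diet. The control livers spanned a narrow range, and no Western diet liver came near it.

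Desaturation and elongation of the product rose with it. Scd1, the stearoyl-CoA desaturase of liver, had 5863, 8672, 10983, 11064 and 7736 CPM on Western diet, against 2978, 3004, 1660, 1950 and 1683 CPM on control diet, where it was already abundant (log2 1.97 ± 0.32, edgeR adjusted p = 0.00053). Elovl6, which extends palmitate to stearate, was 7.10-fold higher and Scd2 8.46-fold higher (edgeR adjusted p = 0.00023 and 0.0092). Elovl5, an elongase of polyunsaturated fatty acids, had 1070, 1169, 1032, 822 and 928 CPM on Western diet and 195, 163, 189, 314 and 173 CPM on control diet. Unlike Fasn, Elovl5 was not lowest in Western diet liver 1. Fads1, a desaturase of polyunsaturated fatty acids, had a log2 fold change of 0.20 ± 0.26 and was not called (edgeR adjusted p = 0.68).

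Among the regulators, Srebf1, which encodes SREBP-1, had 325, 653, 592, 494 and 423 CPM in Western diet livers and 209, 181, 190, 194 and 180 CPM in control livers, 2.61-fold higher (edgeR adjusted p = 0.00015). Insig2, which holds SREBPs in the endoplasmic reticulum, was 2.22-fold higher (edgeR adjusted p = 0.00023). Thrsp (Spot 14), a lipogenic protein of liver and fat, had 636, 2166, 2443, 1677 and 2237 CPM on Western diet and 487, 406, 108, 134 and 181 CPM on control diet, and only Western diet liver 1 came near the control range. Mlxipl, which encodes ChREBP, was not called (log2 0.23 ± 0.28, edgeR adjusted p = 0.66), with 235 to 392 CPM on Western diet and 167 to 539 CPM on control diet. Counts per gene do not separate ChREBP isoforms. Acss2, which makes acetyl-CoA from acetate, was 3.03-fold higher with control livers 2 and 4 (edgeR adjusted p = 0.014) and was not called without them (adjusted p = 0.078).

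**Figure D2:**
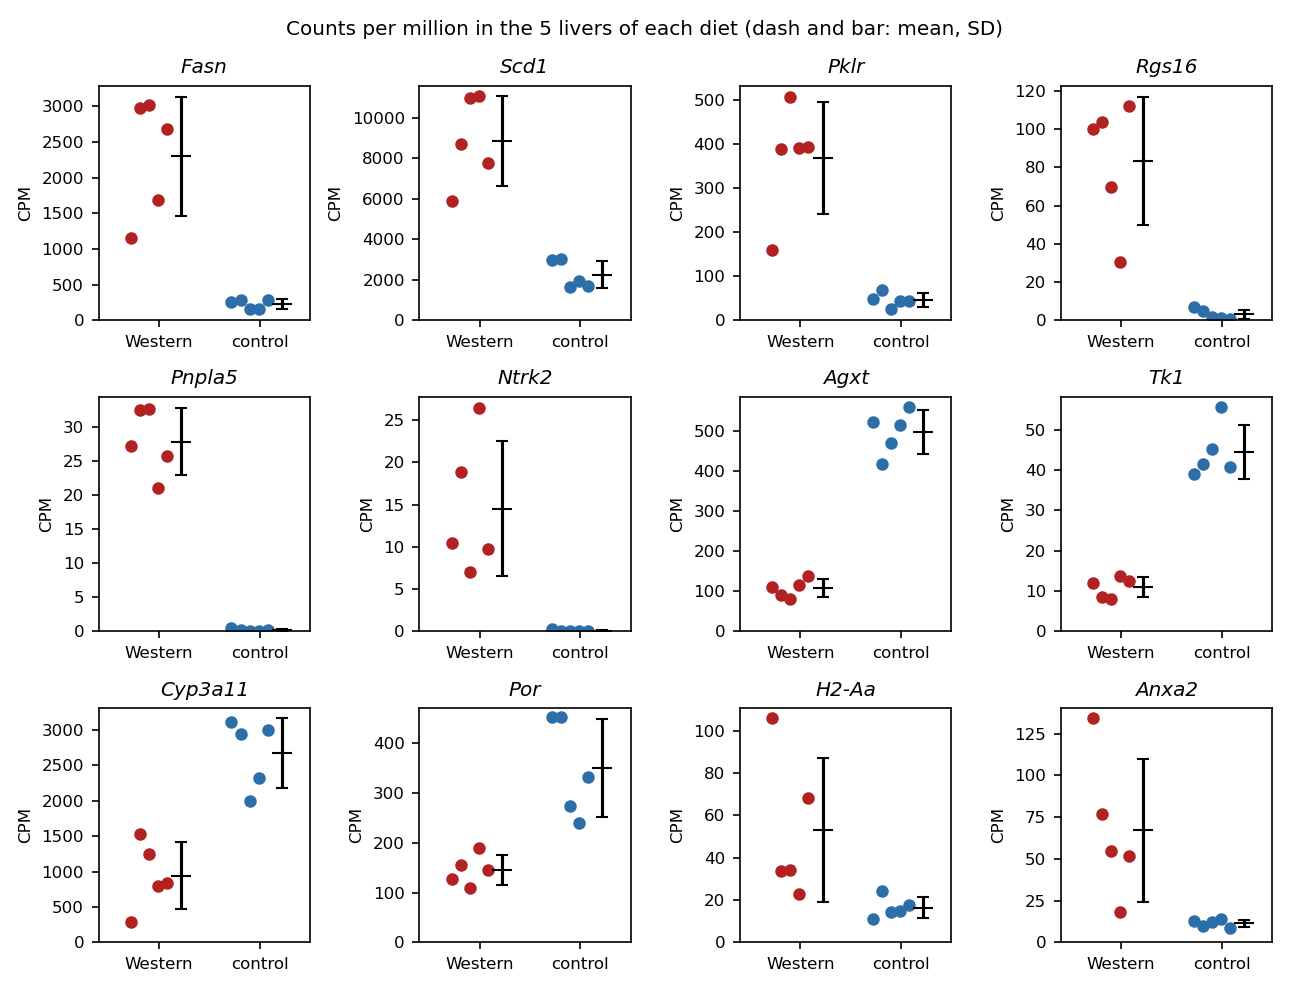
CPM in each of the 5 Western diet livers (red) and 5 control livers (blue) for 12 genes; dashes and bars give the mean and SD, axes start at 0 and differ between panels. Fasn lies at 1155 to 3015 CPM on Western diet and at 156 to 285 CPM on control diet, and for H2-Aa the lowest Western diet liver at 22.8 CPM lies below the highest control liver at 24.5 CPM.

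Genes of the sugar and ChREBP response rose as a second group, with 10 of 19 members called higher and 0 lower, a median log2 fold change of 0.94, and the same 10 and 0 without control livers 2 and 4. Ketohexokinase (Khk) phosphorylates fructose as it enters the pathway, and triokinase (Tkfc) acts on its later product glyceraldehyde. Khk had 741, 1225, 1264, 1070 and 1275 CPM on Western diet, against 549, 474, 451, 455 and 516 CPM on control diet. Khk was 2.28-fold and Tkfc 3.31-fold higher (edgeR adjusted p = 0.00021 and 3.5e-06), and for both the groups did not overlap. Pklr, the liver pyruvate kinase, which ends glycolysis and is a textbook ChREBP target, had 160, 389, 508, 391 and 394 CPM on Western diet and 48.2, 69.6, 25.6, 44.6 and 44.6 CPM on control diet, 7.88-fold higher (edgeR adjusted p = 0.00017).

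Gpi1, which interconverts glucose and fructose phosphates, rose 3.19-fold, and Tkt, transketolase of the pentose phosphate pathway, 2.37-fold (edgeR adjusted p = 3e-06 and 0.00013). G6pc, the catalytic subunit of glucose-6-phosphatase, had 87.9, 393, 357, 469 and 164 CPM on Western diet and at most 74.0 CPM in any control liver (log2 2.27 ± 0.45, edgeR adjusted p = 0.0033). The Western diet livers spread widely, with liver 1 lowest. Rgs16, a regulator of G-protein signalling that follows carbohydrate supply, had 30.8 to 112 CPM on Western diet and 0.977 to 6.89 CPM on control diet, 26.1-fold higher (edgeR adjusted p = 0.00047). Slc2a2, the glucose carrier GLUT2, was called at 1.92-fold (edgeR adjusted p = 0.03) although its groups overlapped. The Slc2a2 call was lost in 7 of the 10 fits that leave out 1 liver.

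The promoters of called members that hold the E-box CACGTG are shown because this palindrome is the core of the elements that ChREBP binds, and SREBP-1 can bind it too. Sequences are RefSeq windows on GRCm38.p6, from 250 bases before to 50 bases after a transcript start. They are written on the gene's strand, 5′ to 3′, with the E-box in capitals. Elovl5 was the only called fatty acid synthesis member with this motif or the sterol half-site TCACNCCAC, and Khk and Fgf21 are the called sugar list members with it, added after their values were seen.
Elovl5, chr9:77917115-77917414, + strand: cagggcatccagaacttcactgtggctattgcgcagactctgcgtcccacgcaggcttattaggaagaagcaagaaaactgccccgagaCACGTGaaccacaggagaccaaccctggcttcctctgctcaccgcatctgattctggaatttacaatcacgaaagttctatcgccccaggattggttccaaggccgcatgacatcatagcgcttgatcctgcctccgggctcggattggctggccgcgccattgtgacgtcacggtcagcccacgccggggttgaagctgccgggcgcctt
Khk, chr5:30921309-30921608, + strand: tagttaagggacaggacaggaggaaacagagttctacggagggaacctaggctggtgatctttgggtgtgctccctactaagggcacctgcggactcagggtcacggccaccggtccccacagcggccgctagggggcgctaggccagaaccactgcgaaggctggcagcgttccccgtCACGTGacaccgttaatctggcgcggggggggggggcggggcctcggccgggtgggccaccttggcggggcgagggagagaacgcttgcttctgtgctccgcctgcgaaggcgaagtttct
Fgf21, chr7:45615441-45615740, - strand: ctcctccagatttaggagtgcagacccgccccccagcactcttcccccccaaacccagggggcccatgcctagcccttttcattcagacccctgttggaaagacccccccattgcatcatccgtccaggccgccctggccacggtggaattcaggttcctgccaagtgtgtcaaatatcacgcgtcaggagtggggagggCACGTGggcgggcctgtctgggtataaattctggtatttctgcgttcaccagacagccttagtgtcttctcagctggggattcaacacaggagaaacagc
The E-box begins at base 90 of the Elovl5 window, at base 180 of the Khk window and at base 201 of the Fgf21 window. CACGTG occurred in 3 of 19 fatty acid synthesis members with a RefSeq window and in 4 of 16 sugar list members, beside 11.9% of 8923 tested genes with one and 8.09% of all 27025 genes. TCACNCCAC, searched on both strands, occurred in 1 of 19 and 1 of 16, in both cases Mlxipl, beside 1.50% of tested genes. TGACNNNGC, the core of the antioxidant element, searched likewise, occurred in 4 of 19 and 4 of 16, beside 16.8%. A match describes letters in a short window and not binding.

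Glucose output and insulin signalling genes mostly stayed uncalled, with 3 of 19 higher, 0 lower and a median log2 fold change of 0.09, and the same counts without control livers 2 and 4. Igfbp1, an insulin-repressed binding protein of the insulin-like growth factors, had 11.0, 9.22, 13.8, 30.3 and 21.7 CPM on Western diet and 4.75, 1.92, 1.58, 2.17 and 2.54 CPM on control diet, 6.58-fold higher (edgeR adjusted p = 0.0017). Pck1, the cytosolic enzyme of gluconeogenesis, had 514, 218, 93.3, 2391 and 389 CPM on Western diet and 2339, 2088, 727, 853 and 599 CPM on control diet. Western diet liver 4 exceeded every control liver, and Pck1 was not called (edgeR adjusted p = 0.4). With Western diet liver 4 left out, Pck1 was called lower (edgeR adjusted p = 0.0087). Pygl, which releases glucose from glycogen, was 1.92-fold higher (edgeR adjusted p = 0.0089). Of the secreted factors, 3 of 21 were called higher and 3 lower, and 3 and 2 without control livers 2 and 4. Inhbe, an inhibin subunit made by liver, was 2.39-fold higher and Fgf21, a hormone of metabolic stress, 12.5-fold higher, with 15.8 CPM in Western diet liver 1 and 1.18 to 3.69 CPM in the other 4, against 0.00 to 0.782 CPM in control livers. Without the first Western diet livers Fgf21 was 5.97-fold higher (edgeR adjusted p = 0.011). Agt, angiotensinogen, fell by 0.80 ± 0.17 and Igfbp2 fell by 1.24 ± 0.28 on the log2 scale (edgeR adjusted p = 0.005 and 0.0084).

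Triglyceride assembly and storage rose in part, with 8 of 22 members called higher, 1 lower and a median log2 fold change of 0.38. Without control livers 2 and 4 the counts were 5 and 1. Gpam, the mitochondrial acyltransferase that begins glycerolipid synthesis, had 37.4, 76.6, 105, 58.2 and 70.9 CPM on Western diet and 4.75, 9.79, 7.90, 6.93 and 2.93 CPM on control diet, 10.7-fold higher (edgeR adjusted p = 0.0017). Gpat4, the endoplasmic reticulum enzyme for the same step, was the called fall. It had 101, 127, 98.7, 110 and 105 CPM on Western diet and 236, 211, 216, 152 and 166 CPM on control diet (log2 -0.86 ± 0.16, edgeR adjusted p = 0.002). Both groups of Gpam and of Gpat4 were fully separated, in opposite directions. Lpin1 and Lpin2, phosphatidate phosphatases, were 4.02-fold and 1.96-fold higher, and Agpat2, the next acyltransferase, 1.54-fold higher (edgeR adjusted p = 0.0054, 0.0079 and 0.031, the last 0.13 without control livers 2 and 4). Agpat2 was also not called in 7 of the 10 fits that leave out 1 liver.

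Lipid droplet genes varied widely among the Western diet livers. Cidec, which fuses lipid droplets, had 133, 73.6, 46.2, 3.38 and 74.9 CPM on Western diet and 6.17, 11.9, 2.21, 1.95 and 1.37 CPM on control diet (edgeR adjusted p = 0.013). Western diet liver 4 lay inside the control range for Cidec. The log2 fold changes of Cidec and Cfd, 3.75 and 4.15, were 4.51 and 4.88 without control liver 2. Mogat1, a monoacylglycerol acyltransferase, had 0.977 to 2.37 CPM in control livers. Western diet liver 4 had 0.338 CPM of Mogat1, beside 6.65 to 16.1 CPM in the other 4 on that diet. It had 4.90 CPM of Plin4, a droplet coat protein, beside 9.17 to 50.1 CPM in the other 4 and 1.30 to 6.12 CPM in control livers. Mogat1 and Plin4 were called over all 10 livers (edgeR adjusted p = 0.015 and 0.024) and not without control livers 2 and 4 (0.09 and 0.081). The Plin4 call was also lost without Western diet liver 1 (log2 1.78, against 2.50 with it) or any 1 of control livers 1, 4 and 5. Plin2, the general droplet coat protein, was 1.58-fold higher with separated groups but not called (edgeR adjusted p = 0.061).

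Cidec, Plin4, Fabp4 and Cfd are also adipocyte markers, and all 4 were called higher. Cfd, adipsin, had 30.8, 29.0, 17.8, 0.169 and 12.2 CPM on Western diet and 1.19, 2.27, 0.632, 0.433 and 0.195 CPM on control diet. Fabp4 had 34.8, 16.3, 13.7, 7.78 and 41.4 CPM on Western diet and 4.27 to 8.66 CPM on control diet. The defining adipocyte genes Adipoq, Lep and Plin1 had 5.24, 9.51 and 3.30 CPM in Western diet liver 5, at most 0.180 CPM in the other Western diet livers and 0.00 CPM in all control livers. The 10 adipocyte markers, led by Car3 of hepatocytes, summed to 1842 ± 618 CPM on Western diet and 2616 ± 520 CPM on control diet (SD, n = 5 each, exact permutation p = 0.0714, adjusted p = 0.179).

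Of 15 patatin-domain lipases and their partners, 4 were called higher and 2 lower, and 2 and 2 without control livers 2 and 4. Pnpla3, a droplet protein whose human form is tied to fatty liver, had 7.14, 15.2, 31.1, 11.7 and 9.13 CPM on Western diet and 0.00 CPM in every control liver. That is at least 113-fold higher, taking 3 counts over the control group as the floor. Pnpla5, on the same stretch of chromosome 15 (84112356 to 84123175, beside 84167837 to 84187236 for Pnpla3, GRCm38), had 27.2, 32.5, 32.7, 21.0 and 25.8 CPM on Western diet and 0.00 to 0.475 CPM on control diet (edgeR adjusted p = 9.6e-06). Pnpla2, the adipose triglyceride lipase that empties droplets, fell by 0.62 ± 0.17 and Lipc, hepatic lipase of the sinusoid surface, fell by 0.77 ± 0.17 on the log2 scale (edgeR adjusted p = 0.024 and 0.0057). Both were called without control livers 2 and 4 (0.027 and 0.013), but the Pnpla2 call was lost in 5 of the 10 fits that leave out 1 liver (adjusted p up to 0.071).

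Acyl-CoA synthetases and carriers split, with 5 of 14 genes of fatty acid uptake and handling called higher and 3 lower, and 3 and 1 without control livers 2 and 4. Acsl3 and Acsl5 were 2.74-fold and 2.03-fold higher (edgeR adjusted p = 0.0039 and 0.004). Acsl1, the main long-chain acyl-CoA synthetase of liver, had 275, 290, 338, 290 and 274 CPM on Western diet and 379, 535, 500, 543 and 366 CPM on control diet (log2 -0.66 ± 0.19, edgeR adjusted p = 0.03, and 0.18 without control livers 2 and 4), and its call was lost in 5 of the 10 single leave-outs. Slc27a2 and Slc27a5, very-long-chain and bile acid CoA ligases, had log2 fold changes of -0.52 ± 0.12 and -0.71 ± 0.16 (edgeR adjusted p = 0.0068 and 0.0066), and lay at the threshold without those livers (0.051 and 0.05). Fabp5, a fatty acid carrier, was 5.88-fold higher with 22.3 CPM in Western diet liver 1, inside the control range of 11.4 to 36.3 CPM, and 51.9 to 315 CPM in the other 4 (edgeR adjusted p = 0.012, and 0.06 without control livers 2 and 4). Cd36, the fatty acid translocase, was 2.00-fold higher and not called (edgeR adjusted p = 0.2).

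**Figure D3:**
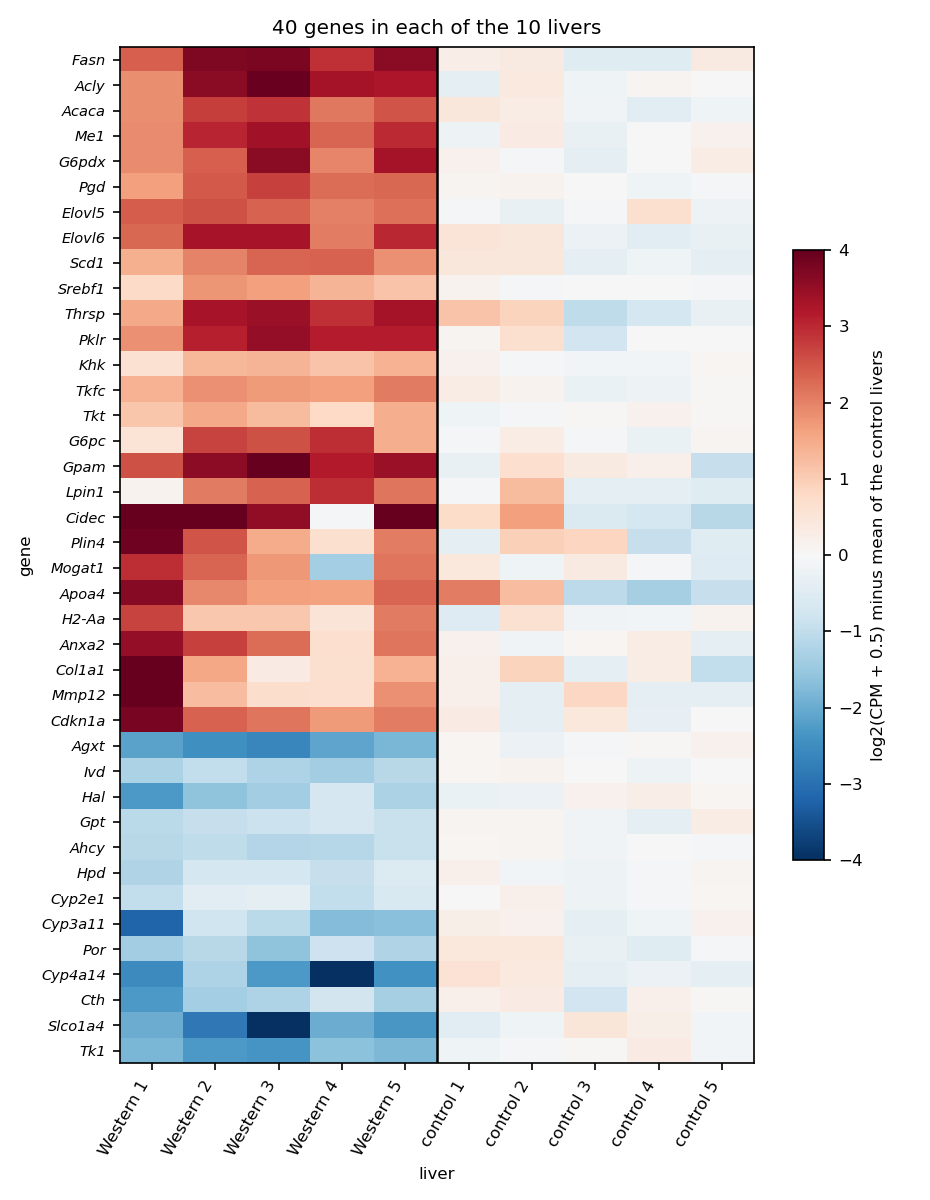
Log2(CPM + 0.5) of 40 genes in each liver, minus the mean of the 5 control livers, with Western diet livers left and control livers right of the line; red is higher, blue lower. Western diet liver 1 is the palest of its group in rows such as Lpin1 and Thrsp and the darkest in Col1a1 and Mmp12, and Western diet liver 4 is pale or blue for Cidec and Mogat1.

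Sterol synthesis changed modestly, with 6 of 25 members called higher, 1 lower and a median log2 fold change of 0.34, 4 and 0 without control livers 2 and 4, and 8 and 0 without the first Western diet livers. Sc5d and Dhcr7, late enzymes of the pathway, were 1.73-fold and 1.61-fold higher, and Lss, which closes the sterol rings, 1.58-fold (edgeR adjusted p = 0.019, 0.039 and 0.028). Insig1, the feedback partner of SREBPs, was 1.61-fold higher (edgeR adjusted p = 0.025). Fdps, farnesyl diphosphate synthase, was 1.71-fold higher (edgeR adjusted p = 0.049, and 0.091 without those livers). Mvk, mevalonate kinase, fell by 0.78 ± 0.24 on the log2 scale (edgeR adjusted p = 0.046, and 0.17 without them). Each of these 6 calls was lost in 2 to 7 of the 10 fits that leave out 1 liver. Hmgcs1, an early enzyme of the pathway, was not called (edgeR adjusted p = 0.38).

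Sterol export and lipoprotein genes held a few calls in each direction, 2 and 2 of 22 and 2 and 2 of 17, which became 1 and 1 and 0 and 1 without control livers 2 and 4. Abcg5 and Abcg8, the pair of half-transporters that move sterols into bile, lie on chromosome 17 and were 2.20-fold and 1.83-fold higher (edgeR adjusted p = 0.0049 and 0.013, the second 0.088 without control livers 2 and 4). Scarb1, the HDL receptor, fell by 0.88 ± 0.23 and Lcat, which esterifies HDL cholesterol, fell by 0.75 ± 0.13 on the log2 scale (edgeR adjusted p = 0.018 and 0.00095). Lcat had 308, 283, 260, 300 and 311 CPM on Western diet and 554, 520, 430, 468 and 487 CPM on control diet, and it stayed called without those livers (0.0097), unlike Scarb1 (0.053). Mttp, which loads triglyceride onto apolipoprotein B, was 1.56-fold higher (edgeR adjusted p = 0.017, and 0.051 without them). Apoa4 had 2742, 836, 677, 664 and 1086 CPM on Western diet and 911, 515, 105, 87.5 and 114 CPM on control diet (edgeR adjusted p = 0.049, and 0.13 without them). Single leave-outs ended the Apoa4 call in 8 of 10 fits (its log2 fold change of 1.79 was 2.54 without control liver 1) and the Scarb1 call in 2. Cyp7a1, the rate-limiting enzyme of bile acid synthesis, was not called (log2 -0.52 ± 0.41, edgeR adjusted p = 0.47).

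Fatty acid oxidation genes had a median log2 fold change of -0.25, with 0 of 35 called higher and 3 lower, and 0 and 2 without control livers 2 and 4. Eci2, an enoyl-CoA isomerase, had 82.8, 88.5, 74.6, 78.5 and 85.4 CPM on Western diet and 208, 191, 145, 129 and 216 CPM on control diet. Cpt2, which completes the entry of fatty acids into mitochondria, fell by 0.51 ± 0.12 and Acot1, a cytosolic thioesterase, by 1.89 ± 0.50 on the log2 scale (edgeR adjusted p = 0.012 and 0.021), and Cpt2 was not called without control livers 2 and 4 (0.057), nor Acot1 without control liver 5 (0.062). The omega-hydroxylase Cyp4a14, a PPAR alpha target, had 28.9, 72.0, 34.7, 0.677 and 31.8 CPM on Western diet and 258, 224, 133, 147 and 132 CPM on control diet. Its groups did not overlap, and it missed the threshold (log2 -2.41 ± 0.77, edgeR adjusted p = 0.055). Its relatives Cyp4a31 and Cyp4a32, on the same stretch of chromosome 4, were called at log2 -2.44 ± 0.52 and -2.17 ± 0.57 (edgeR adjusted p = 0.0051 and 0.02), and reads of these close relatives may be shared.

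Amino acid breakdown was the list with the largest share of lower genes. Of its 33 members 13 were called lower and 0 higher, the median log2 fold change was -0.36, and 9 lower and 0 higher were called without control livers 2 and 4, and 11 and 1 without the first Western diet livers. Agxt (chromosome 1, 93135240 to 93145421, GRCm38), which transfers the amino group of alanine to glyoxylate, had 112, 90.6, 81.3, 115 and 139 CPM on Western diet and 523, 419, 470, 517 and 562 CPM on control diet. It fell to a fraction of 0.216 of the control level. Ivd, isovaleryl-CoA dehydrogenase of leucine breakdown, had 117, 143, 121, 107 and 131 CPM on Western diet and 301, 314, 278, 245 and 285 CPM on control diet (log2 -1.20 ± 0.12, edgeR adjusted p = 3.5e-06). The lowest control liver was above the highest Western diet liver for both genes, and both stayed called without control livers 2 and 4 (adjusted p = 8.3e-05 each).

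Enzymes of histidine breakdown fell at the first and at later steps. Hal, histidine ammonia-lyase, had 83.3, 135, 158, 256 and 171 CPM on Western diet and 342, 350, 465, 491 and 437 CPM on control diet (log2 -1.38 ± 0.25, edgeR adjusted p = 0.0014). Uroc1 and Ftcd, which act later, fell by 0.43 ± 0.13 and 0.47 ± 0.14 on the log2 scale (edgeR adjusted p = 0.035 and 0.04), and were not called without control livers 2 and 4 (0.088 and 0.07), nor in 7 and 8 of the 10 single leave-outs. Gpt, alanine aminotransferase, and Gls2, the liver glutaminase, fell by 0.90 ± 0.16 and 0.97 ± 0.18, Hpd of tyrosine breakdown by 0.81 ± 0.17 and Aldh4a1 of proline breakdown by 0.64 ± 0.13 on the log2 scale (edgeR adjusted p = 0.0014, 0.0017, 0.005 and 0.0035). These 4 remained past the threshold without those livers, at 0.0049, 0.012, 0.021 and 0.01.

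Methionine and one-carbon genes had 1 of 24 called higher and 3 lower, and 0 and 3 without control livers 2 and 4. Ahcy, which hydrolyses S-adenosylhomocysteine, had 1095, 1168, 1043, 1067 and 1275 CPM on Western diet and 2521, 2536, 2140, 2394 and 2273 CPM on control diet (log2 -1.07 ± 0.16, edgeR adjusted p = 0.00021). Cth, which makes cysteine, fell by 1.36 ± 0.27 and Sardh, sarcosine dehydrogenase, by 0.74 ± 0.16 on the log2 scale (edgeR adjusted p = 0.0029 and 0.0065). Mthfd2, a mitochondrial folate enzyme, was 3.63-fold higher at low level (2.33 to 4.32 CPM on Western diet and 0.217 to 1.42 CPM on control diet), and was not called without control livers 2 and 4 (0.081). The urea cycle list had 0 of 10 called lower by edgeR, 3 lower at an unadjusted p under 0.05, and 3 lower by DESeq2 and by voom. Cps1, Ass1 and Asl had log2 fold changes of -0.40 ± 0.34, -0.52 ± 0.18 and -0.67 ± 0.21 (edgeR adjusted p = 0.51, 0.079 and 0.055). Glul, glutamine synthetase of pericentral hepatocytes, was the 1 gene of that list called higher, at 1.53-fold (edgeR adjusted p = 0.048, and 0.12 without control livers 2 and 4), and its call was lost in 8 of the 10 single leave-outs.

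Drug metabolism fell, with 12 of 37 P450 enzymes and partners called lower and 0 higher, a median log2 fold change of -0.59, and 7 and 0 without control livers 2 and 4. Cyp2b10, a target of the receptor CAR, had 0.00, 0.329, 0.180, 0.00 and 0.00 CPM on Western diet, from 3 counts in all, and 6.89, 8.22, 4.43, 8.45 and 9.19 CPM on control diet, from 176 counts. The ratio of control over Western diet was 73.5 with a 95% counting interval of 24.7 to 360. Cyp3a11, the main Cyp3a enzyme of mouse liver, had 288, 1526, 1248, 796 and 835 CPM on Western diet and 3115, 2949, 1995, 2318 and 2998 CPM on control diet (log2 -1.51 ± 0.35, edgeR adjusted p = 0.0089). Western diet liver 1 was the lowest, and the groups stayed apart without it. Por, the electron donor of the P450 enzymes, had 128, 155, 110, 190 and 146 CPM on Western diet and 452, 453, 273, 240 and 331 CPM on control diet.

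Cyp2e1, the ethanol-inducible P450 of pericentral hepatocytes, fell by 0.66 ± 0.19 and Cyp3a25 by 1.08 ± 0.22 on the log2 scale (edgeR adjusted p = 0.036 and 0.0039), and Cyp2e1 was not called without control livers 2 and 4 (0.12) or in 7 of the 10 single leave-outs. Nr1i3, which encodes CAR, had 11.0 to 59.0 CPM on Western diet and 42.5 to 122 CPM on control diet and was not called (edgeR adjusted p = 0.072). Among 41 conjugating enzymes and transporters 1 was called higher and 4 lower, and 0 and 3 without control livers 2 and 4. Ces2a, a carboxylesterase, fell by 1.18 ± 0.28, and Gsta2 and Gsta4, glutathione transferases, by 1.35 ± 0.37 and 0.88 ± 0.21 on the log2 scale, whereas Gstm2 was 1.83-fold higher (edgeR adjusted p = 0.011, 0.026, 0.013 and 0.036, the last 0.083 without control livers 2 and 4). Single leave-outs ended the call in 7 of 10 fits for Gstm2 and in 3 for Gsta2. Slco1a4, an uptake carrier of organic anions, had 7.48, 3.79, 1.44, 7.44 and 5.82 CPM on Western diet and 22.8, 27.5, 43.6, 36.4 and 28.5 CPM on control diet (log2 -2.60 ± 0.37, edgeR adjusted p = 0.00014). Cyp3a, Gsta and Gstm genes have close relatives whose reads the counting may have divided.

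Genes patterned by growth hormone were mostly uncalled. Among male-biased genes 1 of 24 was called higher and 2 lower (median log2 -0.33), and among female-biased genes 0 of 13 higher and 4 lower (median -0.92). Without control livers 2 and 4 these counts were 1 higher and 1 lower for male-biased genes and 0 and 1 for female-biased genes. Igfals, the growth hormone induced carrier subunit of circulating IGF-1, had 71.4, 53.4, 58.8, 72.7 and 70.9 CPM on Western diet and 123, 198, 141, 153 and 151 CPM on control diet (log2 -1.23 ± 0.17, edgeR adjusted p = 8.8e-05). Socs2, a feedback inhibitor of growth hormone signalling, had 14.1, 5.77, 3.78, 2.37 and 4.66 CPM on Western diet and 2.85, 51.1, 35.1, 19.3 and 12.3 CPM on control diet. Control liver 1 lay among the Western diet livers, and the Socs2 call (edgeR adjusted p = 0.036) was lost without control livers 2 and 4 (0.2) and in 6 of the 10 single leave-outs. Serpina12 (vaspin) was 3.35-fold higher, and Keg1 and Cyp3a16 fell by 1.15 ± 0.19 and 1.98 ± 0.53 on the log2 scale (edgeR adjusted p = 0.0027, 0.00062 and 0.023, the last 0.06 without those livers). Cyp3a16 was not called either without control liver 1 or without Western diet liver 5.

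The hepatocyte marker lists below hold genes already named above, such as Hpd, Cyp2e1, Hal, Gls2 and Uroc1. Their sums are therefore not independent of the falls above. The 15 hepatocyte markers, all lower in mean on Western diet, summed to 54630 ± 5116 CPM on Western diet and 70435 ± 5981 CPM on control diet (SD, n = 5 each, exact two-sided permutation p = 0.00794, the smallest possible, adjusted p = 0.0357 over 18 sums). Pericentral markers summed to 4987 ± 949 CPM on Western diet and 6734 ± 527 CPM on control diet (same p). Cyp2e1, the largest of them, averaged 2470 CPM on Western diet and 3908 CPM on control diet. A higher mean on Western diet was seen for 4 of these 10 markers, among them Glul. Periportal markers summed to 2491 ± 1389 and 4283 ± 1129 CPM (exact permutation p = 0.0635, adjusted p = 0.179). The mitochondrial share of counts was 11.6, 6.75, 6.78, 5.64 and 8.03% on Western diet and 5.42, 5.44, 7.02, 7.18 and 4.86% on control diet (exact p = 0.167, adjusted p = 0.224). In whole tissue, fewer cells of a type and less RNA per cell cannot be told apart, and the part of cell content in the falls above was not tested.

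**Figure D4:**
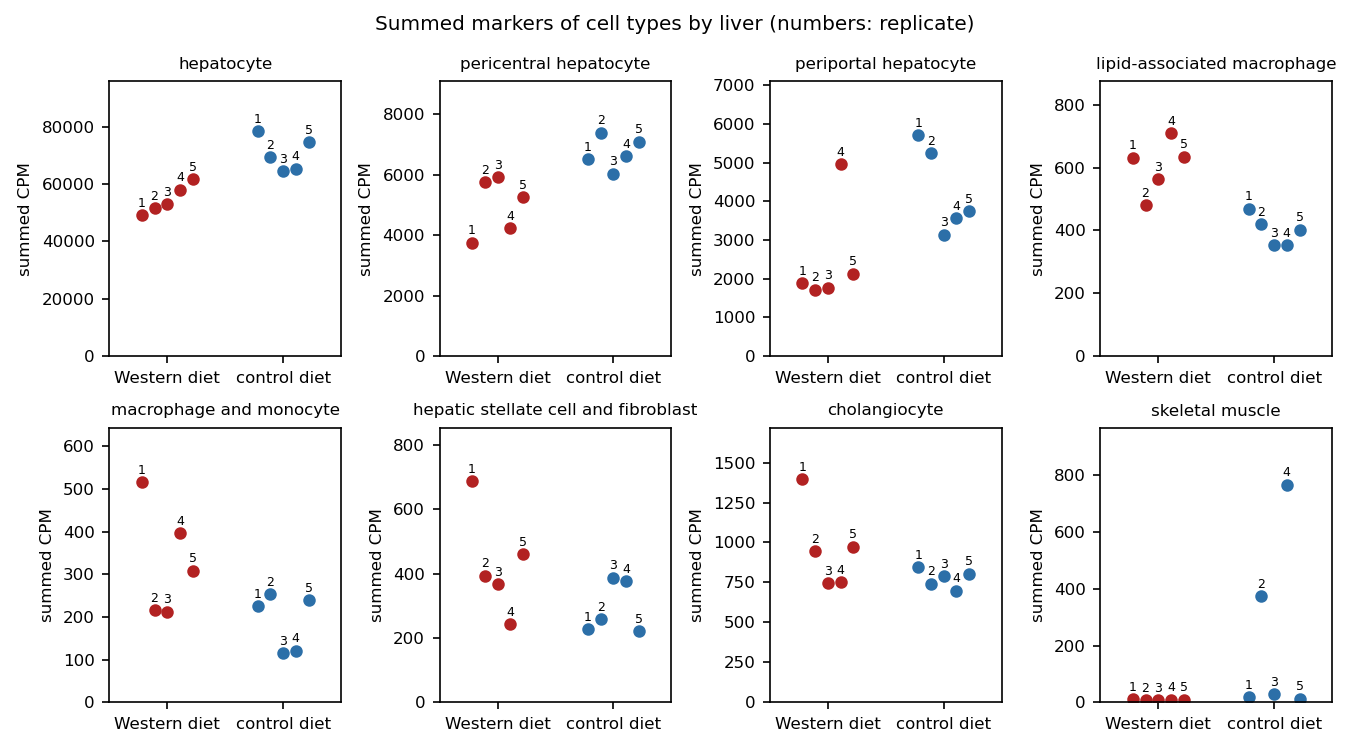
Summed CPM of marker lists in each Western diet liver (red) and control liver (blue), labelled by replicate number, on axes that start at 0. Hepatocyte, pericentral (led by Cyp2e1) and lipid-associated macrophage sums do not overlap between diets (the last do overlap without Fabp5). Western diet liver 1 has the highest stellate cell sum at 687 CPM. Control livers 2 and 4 have 374 and 768 CPM of muscle markers.

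Antigen presentation rose in part, with 5 of 12 members called higher, 0 lower and a median log2 fold change of 1.17. The counts were the same without control livers 2 and 4. Of the 12 members 8 had a positive log2 fold change, and DESeq2 and voom each called 1 member lower. H2-Aa, a chain of MHC class II, had 106, 33.8, 34.4, 22.8 and 68.2 CPM on Western diet and 10.9, 24.5, 14.5, 14.7 and 17.6 CPM on control diet (log2 1.67 ± 0.31, edgeR adjusted p = 0.0017). Western diet liver 4 lay just below control liver 2. H2-Ab1, H2-Eb1 and Cd74, the invariant chain that guides class II molecules, were 3.00-fold, 3.44-fold and 2.77-fold higher (edgeR adjusted p = 0.0063, 0.005 and 0.005). Chemokines and receptors had 4 of 13 called higher and 1 lower, 2 and 1 without control livers 2 and 4, and 1 and 1 without the first Western diet livers. By voom 0 of 13 were called higher. Ccl2, which draws monocytes, and Cx3cr1 were 5.31-fold and 6.68-fold higher at low levels (edgeR adjusted p = 0.046 and 0.02, and 0.2 and 0.065 without those livers). Without the first Western diet livers the log2 fold change of Cx3cr1 was 1.68 and it was not called (0.064), and its call was also lost without Western diet liver 1 alone (0.093). The Ccl2 call was lost in 7 of the 10 single leave-outs, and its log2 fold change of 2.41 was 3.23 without control liver 1. Ccl9 had 38.9, 29.5, 30.2, 39.4 and 39.4 CPM on Western diet and 75.0, 66.5, 54.4, 73.0 and 71.2 CPM on control diet (log2 -0.94 ± 0.13).

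Of 17 tested macrophage and monocyte markers 6 were called higher and 0 lower. The count was 1 without control livers 2 and 4 and 1 without the first Western diet livers. All 20 had a higher mean on Western diet, and they summed to 516, 216, 213, 396 and 309 CPM on Western diet and 225, 254, 115, 121 and 240 CPM on control diet (exact permutation p = 0.0794, adjusted p = 0.179). Lipid-associated macrophage markers summed to 604 ± 86.4 CPM on Western diet and 399 ± 49.2 CPM on control diet (SD, n = 5 each, exact permutation p = 0.00794, adjusted p = 0.0357). Without Fabp5, the fatty acid carrier described above, the sums overlapped at 466 ± 93.1 CPM on Western diet and 376 ± 38.7 CPM on control diet (SD, n = 5 each, exact permutation p = 0.0556). Of the 12 members 4 were called higher, 1 without control livers 2 and 4 and 2 without the first Western diet livers. Trem2, a receptor of these cells, had 5.27, 0.494, 1.44, 1.69 and 2.91 CPM on Western diet and 0.475 to 2.85 CPM on control diet and was not called (edgeR adjusted p = 0.18). Mmp12, the macrophage elastase, had 10.2 CPM in Western diet liver 1 and 0.507 to 1.75 CPM in the other 4, from 81 counts, and 0.00 to 0.632 CPM on control diet, from 3 counts. The ratio of Western diet over control was 21.6 with a 95% counting interval of 7.12 to 107, and 7.04 (2.1 to 36.9) without Western diet liver 1, from 21 and 3 counts. Cd68, a lysosomal protein of macrophages, was 2.17-fold higher (edgeR adjusted p = 0.027, and 0.1 without the first Western diet livers). Mmp12 and Cd68 were not called without control livers 2 and 4 (0.13 and 0.084), nor without Western diet liver 1 (0.097 and 0.1).

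Collagen and matrix genes had 10 of 34 members called higher, 0 lower and a median log2 fold change of 1.09. The count was 6 without control livers 2 and 4 and 5 without the first Western diet livers. Anxa2, a membrane-binding annexin, had 134, 77.1, 54.9, 18.1 and 51.5 CPM on Western diet and 12.6, 10.1, 12.0, 13.9 and 8.41 CPM on control diet, 5.90-fold higher (edgeR adjusted p = 0.0011). S100a11, a calcium-binding protein, was 4.23-fold higher (edgeR adjusted p = 0.0091), and 2.43-fold without the first Western diet livers (0.019). Col1a1, the main fibrillar collagen, had 80.2, 13.7, 5.58, 6.93 and 12.0 CPM on Western diet and 4.99, 8.39, 3.16, 5.41 and 1.95 CPM on control diet. Its call (edgeR adjusted p = 0.027) was lost without the first Western diet livers (1.93-fold, 0.15) and without control livers 2 and 4 (0.056). It was also lost in 4 of the 10 single leave-outs, as was that of Col4a2, and that of Bgn in 5. Col15a1 and Dcn, a basement membrane collagen and the proteoglycan decorin, were 2.62-fold and 2.04-fold higher and stayed called in both reduced fits. Lrat, which stores retinol in stellate cells, was 2.41-fold higher (edgeR adjusted p = 0.013). Col4a2 and Bgn were called over all 10 livers (0.036 and 0.029) and not without the first Western diet livers (0.1 and 0.089) or without control livers 2 and 4 (0.095 and 0.083), while Col3a1 and Spp1 were not called (0.08 and 0.071). Stellate and fibroblast markers summed to 687, 394, 368, 243 and 460 CPM on Western diet and 227, 258, 387, 376 and 221 CPM on control diet (exact permutation p = 0.119).

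Cell cycle genes had 5 of 23 members called higher and 1 lower, the same without control livers 2 and 4, and a median log2 fold change of 0.85. Cdkn1a (p21), which halts the cycle, had 31.1, 11.2, 9.53, 6.93 and 8.93 CPM on Western diet and 2.37, 1.22, 2.53, 1.30 and 1.76 CPM on control diet (log2 2.91 ± 0.50, edgeR adjusted p = 0.00082). Ccnd1, cyclin D1, Mcm3 of the replicative helicase and Rrm2 of ribonucleotide reductase were 3.91-fold, 3.28-fold and 4.60-fold higher. Mki67, a marker of dividing cells, was 4.11-fold higher at 1.08 to 7.48 CPM on Western diet and 0.00 to 1.66 CPM on control diet (edgeR adjusted p = 0.036, and 0.12 without control livers 2 and 4). Without the first Western diet livers Mki67 was 2.63-fold higher and not called (0.13), and its call was lost in 6 of the 10 single leave-outs. Tk1, thymidine kinase, went the opposite way with 12.1, 8.57, 8.09, 13.7 and 12.4 CPM on Western diet and 38.9, 41.5, 45.2, 55.7 and 40.7 CPM on control diet (log2 -2.01 ± 0.19, edgeR adjusted p = 3e-06).

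Antioxidant genes split, with 4 of 27 Nrf2 targets called higher and 3 lower, and 2 and 3 without control livers 2 and 4. Srxn1, sulfiredoxin, had 136, 125, 93.5, 51.1 and 79.2 CPM on Western diet and 38.9, 37.1, 47.4, 44.6 and 35.0 CPM on control diet (log2 1.26 ± 0.22, edgeR adjusted p = 0.00084). Slc7a11, the cystine importer, was 2.15-fold higher and Nfe2l2, which encodes Nrf2, 1.84-fold (edgeR adjusted p = 0.0091 and 0.023, the second 0.12 without control livers 2 and 4). The Nfe2l2 call was lost in 5 of the 10 single leave-outs. Nqo1, a classic Nrf2 target, was not called (edgeR adjusted p = 0.094), and Gsta2 and Gsta4 fell. Of 29 genes of the unfolded protein and heat shock response 1 was called higher and 1 lower, and 0 and 2 without control livers 2 and 4. Creld2 and Derl3, endoplasmic reticulum proteins of which at most 1 is in that list, were both called lower (edgeR adjusted p = 0.0039 and 0.0033). Both stayed called in all 10 single leave-outs, but they were spread widely among control livers. Creld2 had 24.1 to 34.0 CPM on Western diet and 245, 167, 26.9, 34.4 and 73.3 CPM on control diet. Derl3 had 0.338 to 1.65 CPM on Western diet and 2.54 to 36.6 CPM on control diet. Without control liver 2 the log2 fold change of Derl3 was -2.46, against -3.43 with it. Mt1, a metallothionein, likewise had 99.2, 11.0, 11.2, 37.5 and 19.0 CPM on Western diet and 771, 302, 50.9, 27.3 and 36.6 CPM on control diet (edgeR adjusted p = 0.042, lost in 6 of the 10 single leave-outs). Its log2 fold change of -2.74 was -1.56 without control liver 1 and -3.59 without Western diet liver 1.

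Usp2, a deubiquitinase with a daily rhythm, had 5.10, 2.31, 2.52, 7.78 and 3.69 CPM on Western diet and 40.8, 30.6, 5.06, 3.03 and 11.5 CPM on control diet. As for Creld2 and Mt1, control livers 1 and 2 were the highest, and the Usp2 call was lost without either of them and without Western diet liver 2 or 3. Of 19 clock genes 1 was called higher and 2 lower, and 0 and 2 without control livers 2 and 4. Per2 was 2.57-fold higher and Nfil3 fell by 1.05 ± 0.25 on the log2 scale (edgeR adjusted p = 0.013 and 0.011), and Per2 was not called without control livers 2 and 4 (0.086). The hour of sampling is not given in the labels. Complement and coagulation genes had 1 of 32 higher and 2 lower, and 1 and 1 without control livers 2 and 4, where C3 fell by 0.61 ± 0.18 on the log2 scale (edgeR adjusted p = 0.041, and 0.095 without control livers 2 and 4) and lost its call in 7 of the 10 single leave-outs. Of 13 tested genes of the Na,K-ATPase and Src family none was called by edgeR at the adjusted p, whereas 3 were higher at an unadjusted p under 0.05, and DESeq2 and voom called 0. Src had a log2 fold change of 1.29 ± 0.56 (edgeR adjusted p = 0.16).

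Several genes at or near 0 in control liver were clearly detected on Western diet. Chrna4 (chromosome 2, 181018380 to 181043546), a nicotinic acetylcholine receptor subunit, had 61.3, 48.9, 60.1, 28.6 and 33.8 CPM on Western diet and 0.475, 0.525, 2.53, 2.38 and 1.76 CPM on control diet, 31.2-fold higher (edgeR adjusted p = 3e-06). Ntrk2 (chromosome 13, 58806569 to 59133970), the receptor of the neurotrophin BDNF, had 10.5, 18.8, 7.01, 26.4 and 9.71 CPM on Western diet, from 421 counts, and 0.237 CPM in control liver 1 and 0.00 CPM in the other 4, from 1 count. The ratio was 336 with a 95% counting interval of 60.0 to 13312. A4gnt, a glycosyltransferase, had 2.38, 10.4, 12.1, 1.69 and 2.52 CPM on Western diet and 0.00 CPM in every control liver, at least 44.5-fold higher against the same floor. Its call (edgeR adjusted p = 0.013) was lost without control livers 2 and 4 (0.064). Ly6d, a surface protein of the Ly6 family, had 92.1, 48.1, 12.4, 15.7 and 20.8 CPM on Western diet and 0.948 to 2.85 CPM on control diet, with a log2 fold change of 4.60 that was 3.96 without Western diet liver 1. Atp2b2, a plasma membrane calcium pump, and Stap1, a signalling adaptor, were 15.8-fold higher each (edgeR adjusted p = 3.6e-06 and 8.8e-05). Among the falls, Enho, which encodes adropin, had 0.510, 0.329, 0.360, 6.43 and 0.777 CPM on Western diet and 8.07, 14.2, 20.5, 8.88 and 16.0 CPM on control diet (its call was lost without Western diet liver 2 or 3, and its log2 fold change of -2.97 was -4.73 without liver 4), and Rab11fip4, a partner of the recycling GTPase Rab11, fell by 2.25 ± 0.35 on the log2 scale.

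The same diet contrast in the 10 NaKtide livers shares no library with the one above. There 3189 genes were called (24.5%), 4802 without the first Western diet livers and 227 with the mitochondrial share as a covariate, and that share was 7.06 to 16.95% in NaKtide livers on Western diet and 5.329 to 6.871% on control diet. Of the 1097 genes called without NaKtide, 824 (75.1%) had the same sign there, beside 52.7% of all genes, and 398 were called with the same sign, which is 36.3% of the 1097 and 12.5% of the 3189. The difference of the diet effects was called for 649 genes (5.00%; 192 to 2738 with 1 library left out, 2028 without Western diet liver 1, 2738 without NaKtide liver 1 on Western diet and 3678 without both), of which 228 were among the 1097. Higher and lower differences numbered 380 and 269, and 342 and 375 with RLE scaling.

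Lipid and sugar genes differed between the contrasts. The difference was called for 18 of 24 fatty acid synthesis genes, 8 of 19 sugar response genes and 20 of 25 cholesterol synthesis genes, all in the direction of a higher value without NaKtide. Fasn had a diet effect of 3.33 ± 0.41 without NaKtide and -0.21 ± 0.38 with it on the log2 scale. It had 2541, 1832, 746, 920 and 672 CPM in NaKtide livers on Western diet and 940, 897, 1155, 2430 and 2342 CPM in NaKtide livers on control diet. Both sets lay above the 156 to 285 CPM of the control livers without NaKtide. Scd1 likewise averaged 7676 ± 1437 CPM in NaKtide livers on Western diet and 6194 ± 3825 CPM in NaKtide livers on control diet (SD, n = 5 each), beside 2255 CPM in control livers without NaKtide. The effect of NaKtide within a diet was not tested. Cholesterol synthesis was called lower on Western diet for 24 of 25 genes in the NaKtide livers, against 6 higher and 1 lower without it. Over all 12991 genes tested, 1514 were called lower in the NaKtide livers and 480 without NaKtide. Amino acid breakdown had a called difference for 2 of 33 genes, and antigen presentation for 0 of 12 by edgeR (1 at an unadjusted p under 0.05, and 1 each by DESeq2 and voom). Agxt fell by 2.21 ± 0.23 without NaKtide and by 1.45 ± 0.22 with it, and H2-Aa rose by 1.67 ± 0.31 without it and 1.86 ± 0.30 with it. Without control livers 2 and 4 the difference was called for 364 genes, and with the mitochondrial share as covariate for 149. The list counts of called differences above are not given again for these fits.

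**Figure D5:**
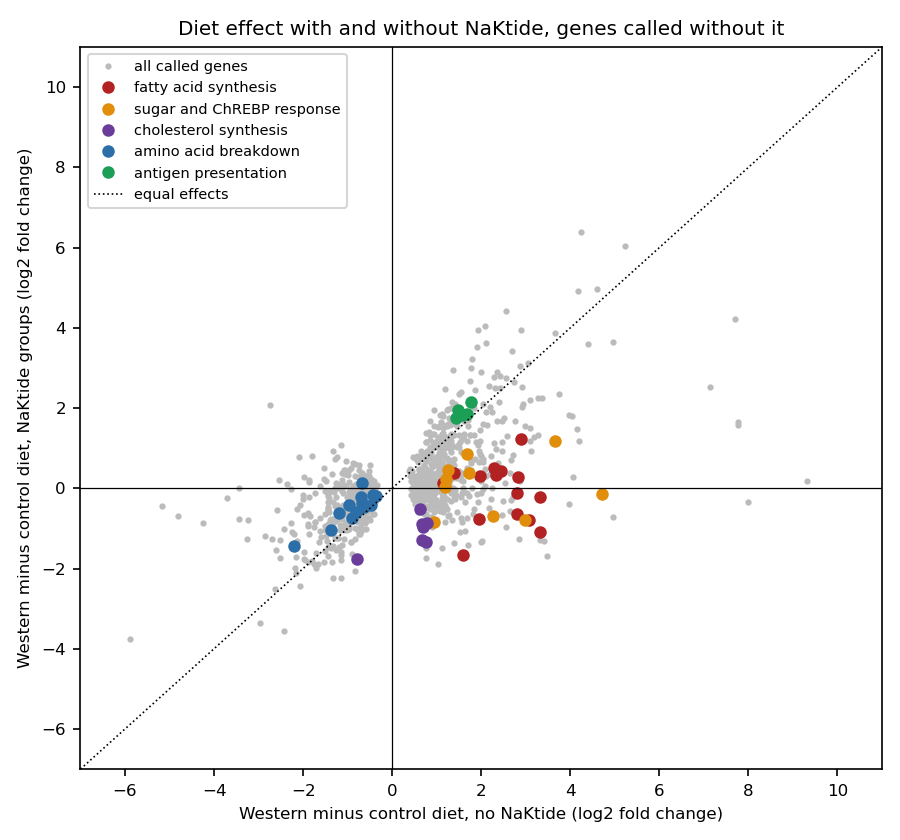
Log2 fold change of Western over control diet without NaKtide (x axis) and in NaKtide livers (y axis) for the 1097 genes called without NaKtide, with members of 5 lists coloured. Antigen presentation genes lie near the dotted line of equal effects, while the 15 fatty acid synthesis genes lie between -1.66 and 1.24 on the y axis at x values up to 3.33.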

How the data were processed

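Liver RNA was sequenced from stranded mRNA libraries, per the labels' protocols. Per the submitters' processing notes Trimmomatic 0.38, HISAT2 2.1.0 and DESeq2 1.20.0 were used with GRCm38; the sources used here name neither the counting program nor the annotation. Only the deposited raw counts per gene were used. All 60 columns matched a sample by name. Coordinates are from GENCODE M21 (GRCm38), and promoter windows from RefSeq (GRCm38.p6).

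The 20 liver libraries were fitted in R 4.3.3 with edgeR 4.0.16, as 1 quasi-likelihood model of 4 groups, tested on simulated data. Settings were TMM scaling, filterByExpr by group, Benjamini-Hochberg adjusted p 0.05 and the default prior count of the fit. Principal components and correlations between livers used log2 CPM with a prior count of 2. Contrasts were Western minus control diet without NaKtide, the same with NaKtide, and their difference. Alternatives were RLE scaling, no filter, DESeq2 1.42.0, voom of limma 3.58.1 with quality weights, the 2 groups alone, a replicate block, the mitochondrial share as covariate, fits without control livers 2 and 4 or without the first Western diet livers, and each library left out. Of the deposited counts, a group total of 0 was bounded with a floor of 3 counts over the group, and counting intervals (exact binomial, 95%) cover counting error only. Summed markers were compared by exact permutation of 5 against 5 livers with scipy 1.17.1.

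Some results are not reported here. The 34 gene lists, 16 marker lists and all named genes were chosen with earlier results of these data known. The text prints a selection, made after values were seen, from a naming rule: the 12 largest rises and falls among called genes of at least 5 CPM with separated groups, the 8 most abundant called genes each way, up to 4 called members each way per list, and list members named for their role.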

Additional observations from a re-analysis of the deposited data

Results flagged for a closer look

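Among 342 groups of 5 livers examined, over named genes and summed markers, 35 held a liver far from the other 4 by Dixon's criterion. Its chance rate of about 1 group in 20 holds for normally distributed values. CPM at low counts are not so distributed, and the number expected by chance here is not known. Western diet liver 1 was far above its group for Fgf21 (15.8 CPM, next 3.69), Apoa4 (2742, next 1086), Socs2 (14.1, next 5.77), Cx3cr1 (9.18, next 2.31), Mmp12 (10.2, next 1.75) and S100a11 (107, next 33.6). The same liver stood far above the others for Col1a1 (80.2 CPM, next 13.7), Col3a1 (112, next 33.2), Spp1 (94.0, next 30.4), Cdkn1a (31.1, next 11.2) and Src (5.61, next 1.75). It lay far below them for Slc7a11 (6.12 CPM, next 11.8). Its mitochondrial share of counts, 11.6%, was the highest of the 10 livers.

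Western diet liver 4 was far above its group for Pck1 (2391 CPM, next 514), Scarb1 (145, next 78.4), Enho (6.43, next 0.777) and C3 (3812, next 2376). It was also far above for the summed periportal hepatocyte markers (4959, next 2129), a list that includes Pck1. Western diet liver 3 was high for Acsl1 (338 CPM, next 290) and Western diet liver 5 for Fdps (205, next 112). On control diet, liver 1 was high for Gpi1 (255 CPM, next 210), Ntrk2 (0.237, next 0.00) and Ly6d (2.85, next 1.40). Control liver 2 was high for Lpin1 (52.8 CPM, next 20.9), H2-Ab1 (25.7, next 14.9), Cx3cr1 (0.874, next 0.391) and Mcm3 (4.37, next 2.38). Control liver 3 was high for Mlxipl (539 CPM, next 268), Abcg5 (87.9, next 61.9), Trem2 (2.85, next 0.782), Nfe2l2 (50.6, next 32.9) and the summed endothelial markers (396, next 238). Control liver 4 was high for Elovl5 (314 CPM, next 195), and control liver 5 was high for Abcg8 (115, next 83.4) and Gsta2 (146, next 80.7) and low for Insig2 (71.9, next 119).

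For 52 named genes the diet effect without NaKtide differed from the diet effect with NaKtide in edgeR's interaction contrast at adjusted p 0.05; the values below are the log2 effect without minus the effect with NaKtide. In fatty acid synthesis they were 3.54 for Fasn, 4.41 for Acly, 2.02 for Acaca, 2.71 for Acacb, 1.67 for Scd1, 3.87 for Scd2, 3.43 for Me1, 1.66 for G6pdx, 1.99 for Pgd, 1.02 for Srebf1, 2.91 for Thrsp, 1.77 for Elovl5, 2.54 for Elovl6, 1.02 for Insig2 and 3.26 for Acss2. In sugar and glucose metabolism they were 3.76 for Pklr, 1.15 for Khk, 1.34 for Tkfc, 2.95 for G6pc, 0.82 for Gpi1, 4.86 for Rgs16, 1.77 for Slc2a2, 2.92 for Igfbp1 and 1.38 for Pygl. In lipid storage and handling they were 4.75 for Gpam, -0.81 for Gpat4, 3.32 for Lpin1, 9.14 for Pnpla3, 4.61 for Pnpla5, 2.03 for Acsl3, 1.46 for Acsl5, 3.53 for Fabp5 and -0.60 for Cpt2. Since Pnpla3 had 0 counts in control livers without NaKtide, its fitted value depends on the default prior count of the fit and is no bound. The same holds for A4gnt below.

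In sterol metabolism the difference was 1.66 for Sc5d, 1.96 for Lss, 1.58 for Dhcr7, 2.12 for Fdps, 1.65 for Insig1 and 2.08 for Hmgcs1. Elsewhere it was -1.40 for Por, -0.79 for Ccl9, -3.17 for Trem2, 1.58 for Col15a1, 1.85 for Rrm2, -1.75 for Tk1, 1.58 for Slc7a11, -4.81 for Mt1, -2.88 for Usp2, 6.11 for Ntrk2, 5.67 for Chrna4, 8.33 for A4gnt and 4.36 for Atp2b2. Adjusted p ranged between 0.0001 for Chrna4 and 0.049 for Cpt2. The number of genes with such a difference moved from 649 to as few as 192 and as many as 2738 when 1 library was left out.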

How the results depend on the processing

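The number of genes called for diet without NaKtide, 1097, was 1744 with voom, 693 with the 2 groups alone and 656 without control livers 2 and 4. It was 1115 with RLE scaling, 1432 with DESeq2, 974 with no filter and 1104 with the mitochondrial covariate. With 1 library left out it ranged between 773 (Western diet liver 3) and 1134 (control liver 3). For diet with NaKtide the 3189 calls became 5609 with voom, 227 with the mitochondrial covariate and 4802 without the first Western diet livers, and 1704 to 4695 with 1 library left out; NaKtide livers 4 and 5 on Western diet (1704 and 2011) and liver 5 on control diet (2104) each moved it by over 1.5 times. The 649 differences became 1476 with DESeq2 (616 higher, 860 lower), 3243 with voom, 149 with the mitochondrial covariate, 364 without control livers 2 and 4 and 3678 without the first Western diet livers. The fits without the first Western diet livers for diet with NaKtide and for the difference, the sums without Fabp5 (a difference of 90.1 CPM) and the Mmp12 ratio without Western diet liver 1, were chosen after seeing the data. The differences ranged between 192 and 2738 with 1 library left out, past 1.5 times for 18 of 20 libraries, all except Western diet liver 5 and NaKtide liver 3 on control diet. Replicate numbers did not pair the samples: deviations of same-numbered livers correlated at -0.18, -0.102, -0.161, -0.228 and 0.233. With the replicate number as a block 760, 2327 and 155 genes were called. Of 136 named genes called for diet, 101 stayed called in all 10 single leave-outs, 102 without control livers 2 and 4, 135 with DESeq2 and 114 with the block, and none changed sign in any of these fits. Among the 17 named genes that were not called, Fads1 turned to -0.07 with voom. Of these 17 genes, DESeq2 called 6, voom called 5 and the fit with no filter called 4. Single leave-outs brought a call for Pck1, Col3a1 and Nqo1 (without Western diet liver 4), Cyp4a14 (Western diet liver 2) and Nr1i3 (Western diet liver 1). They also did so for Ass1 (control liver 3) and Asl (control liver 3 or Western diet liver 5). Marker sums that did not differ changed sign when 1 liver was left out: the difference in CPM ranged between -2.41 and 1.10 for neutrophil markers, between -1347 and 551 for erythroid markers (397 without control livers 2 and 4) and between -1.35 and 4.63 for mesothelial markers. Limits remain beside these: 5 livers per group of 1 tissue sample each, a depth of 3177783 to 6271185 counts that leaves genes under about 5 CPM with wide counting error, diets that differ in 3 nutrients, muscle transcripts in 2 control livers, and reads that near copies such as the Cyp3a, Cyp4a and Gsta genes may share. The cause of the lower or higher counts was not tested.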
